A study of Mus musculus with 24 samples.

Results

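The response of wild-type mouse myotubes to bone morphogenetic protein 4 (BMP4) was measured on 6 of the 24 arrays of the series, 3 from untreated and 3 from BMP4-treated cultures, and is described over the 19938 genes that have a probe set of their own. The cells were the wild-type H-2Kb-tsA58 line, an immortalised mouse muscle line that carries a temperature-sensitive large T antigen. Both groups were differentiated for 3 days at 37 °C in horse serum medium, and the treated group then received 25 ng/ml BMP4 for 8 h without serum deprivation. Each array carried total RNA of 1 sample on an Affymetrix whole-transcript gene array, and a value is the log2 signal of a probe set. The labels call the samples biological replicates but name no separate culture or day for them, and any p-value rests on the scatter among such samples, part of which may be technical.

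Further groups of 3 arrays served to show where the response differed. These were untreated and BMP4-treated myoblasts of the same line, cells not taken through the 3 days of differentiation. They were grown at 33 °C in fetal bovine serum medium with interferon-γ. When treated, they were deprived of serum for 4 h before 8 h of 25 ng/ml BMP4. For untreated myoblasts the labels give no deprivation time. The others were untreated and treated myotubes of a MuSK-null line, differentiated and treated as the wild-type myotubes were. Untreated and treated myoblasts of the MuSK-null line entered the fit and the count of genes called in no other response. They were kept at 33 °C and, when treated, deprived of serum for 4 h before 8 h of 25 ng/ml BMP4. MuSK is the muscle-specific receptor tyrosine kinase of the neuromuscular synapse. Each genotype is 1 cell line, so a difference between genotypes cannot be told apart from a difference between lines.

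BMPs are secreted ligands that bind pairs of type I and type II serine/threonine kinase receptors. The type I receptor phosphorylates Smad1, Smad5 and Smad9, which join Smad4 in the nucleus and act on target genes such as the Id genes. Id proteins bind the E-protein partners of MyoD and its relatives, and BMP ligands are known for holding back muscle differentiation and for turning muscle precursor lines toward an osteoblast program. Inhibitory Smads, decoy receptors and secreted antagonists form the negative feedback of the pathway.

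The myotube label was checked first against markers. The 12 skeletal muscle markers, among them desmin (Des), skeletal actin (Acta1) and the acetylcholine receptor subunit Chrna1, had a mean signal between 13.32 and 13.36 on the untreated arrays and between 13.24 and 13.28 on the BMP4 arrays. In untreated myoblasts of this line it was between 12.14 and 12.17. The 10 endothelial markers averaged 6.57 to 6.64 untreated and 6.58 to 6.66 with BMP4, and the 9 macrophage markers 6.22 to 6.35 and 6.30 to 6.39. The 11 fibroblast markers averaged 8.59 to 8.67 and 8.55 to 8.62, and none of the endothelial, macrophage or fibroblast markers passed the test of the response. Of the 10 smooth muscle markers (mean 9.23 to 9.28 and 9.30 to 9.35) Myocd (0.34) and Synpo2 (0.32) were higher and Smtn (-0.33) was lower, and of the 8 Schwann and neural markers (7.34 to 7.36 and 7.36 to 7.43) Stmn2 (0.27) was higher. The call of Myocd was lost without untreated replicate 1 or BMP4 replicate 3 (adjusted p up to 0.104), that of Synpo2 without untreated replicate 2 or BMP4 replicate 1 (up to 0.0550), and that of Stmn2 without untreated replicate 1 or 3 or BMP4 replicate 1 or 2 (up to 0.144). The part of these cells in the results was not tested. Array signal does not reach 0, and probe sets differ in brightness, so these values show only whether a list moved. The medians of the 6 arrays lay between 7.38 and 7.43, and correlations between arrays were 0.994 to 0.996 among untreated, 0.992 to 0.994 among treated and at least 0.989 over all 6. The main axis of variation among the 6 arrays carried 49.2% of the variance and separated treated from untreated samples.

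BMP4 changed the signal of 1749 genes in wild-type myotubes. It raised Fabp7, Sp7, Cxcr4, Id1, Id3 and the inhibitory Smads Smad6 and Smad7 by some of the largest amounts of any gene. The falls were led by Fgf9, the row of the microRNA gene Mir1a-2, E2f2, Lrrc26 and Mest. At an adjusted p under 0.05 in limma (Benjamini-Hochberg adjustment over all genes), 878 genes rose, which is 4.40% of the genes tested, and 871 fell, which is 4.37%. Without adjustment 3850 genes had a p under that threshold. Most changes were small. The median fold of the called genes was 1.30. Of the called genes 207 rose and 149 fell by at least 1.5-fold, 54 rose and 21 fell by at least 2-fold, and 4 rose and 0 fell by at least 4-fold. The median log2 change of all genes was 0.02. In 1721 of the called genes the 3 treated arrays did not overlap the 3 untreated ones, as was also so for 24.7% of all genes.

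**Figure D1:**
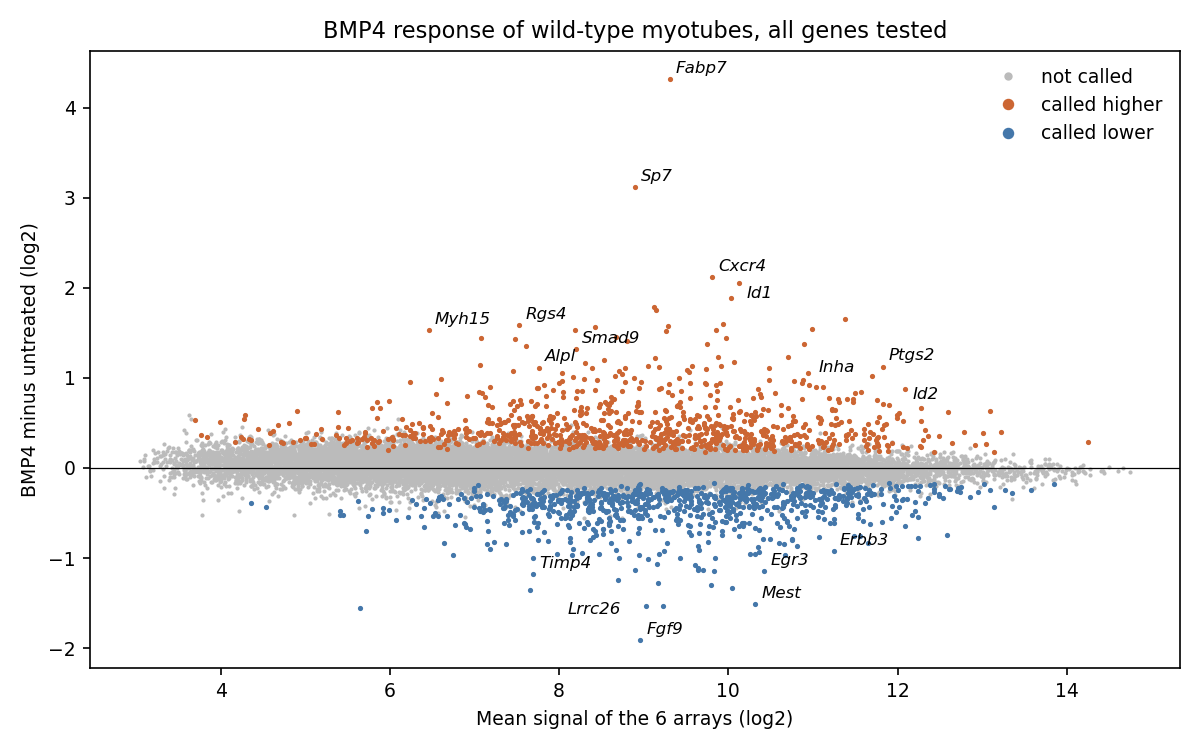
Log2 change after BMP4 (3 treated minus 3 untreated arrays, vertical axis) against the mean log2 signal of the 6 wild-type myotube arrays (horizontal axis), 1 point per gene for the 19938 genes tested. Orange points are the 878 genes called higher and blue points the 871 called lower; Fabp7 (4.32) and Sp7 (3.12) lie farthest above the line of no change, and Fgf9 (-1.91) farthest below it.

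The gene with the largest rise was Fabp7, the brain-type fatty acid binding protein. Its untreated arrays read 7.25, 7.01 and 7.18 and its BMP4 arrays 11.50, 11.45 and 11.45, a rise of 4.32 on the log2 scale (SE 0.08, limma adjusted p = 4.02e-20), or 20.0-fold. Sp7, also called osterix, a transcription factor required for osteoblast formation, went from 7.39, 7.42 and 7.18 to 10.54, 10.46 and 10.36, a rise of 3.12 (SE 0.14, adjusted p = 3.20e-13). Cxcr4, the receptor of the chemokine Cxcl12, read 8.74, 8.87 and 8.64 untreated and 10.89, 10.91 and 10.81 with BMP4, a rise of 2.12 (SE 0.07, adjusted p = 1.07e-14). For each of these genes the gap between the groups was many times the spread within them. Other large rises were those of Dynap (1.66), Dhrs3, a retinal reductase (1.60), Rgs4, which speeds the inactivation of G proteins (1.59), and Serpinb2, an inhibitor of plasminogen activators (1.56).

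The Id genes all rose. Id1 read 9.20, 9.03 and 9.06 in untreated myotubes and 11.09, 11.21 and 11.14 after BMP4, a log2 change of 2.05 (SE 0.07, adjusted p = 1.11e-14). Id3 went from 9.19, 8.84 and 9.24 to 11.06, 10.94 and 10.92, a change of 1.88 (SE 0.09, adjusted p = 2.22e-12). The treated arrays of Id1 and Id3 lay close to each other and far above every untreated array. Id2 rose less, from 11.61, 11.72 and 11.60 to 12.56, 12.44 and 12.58, a change of 0.88 (SE 0.08, adjusted p = 4.84e-08). Id4 rose least, from 7.20, 7.32 and 7.32 to 7.67, 7.82 and 7.79, a change of 0.48 (SE 0.10, adjusted p = 0.00222). The untreated and treated arrays did not overlap for any of them.

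The inhibitory Smads rose as well. Smad6, which competes with receptor-activated Smads, read 8.23, 8.27 and 8.19 untreated and 10.02, 10.05 and 9.96 with BMP4, a change of 1.78 (SE 0.08, adjusted p = 3.20e-13). Smad7, which recruits ubiquitin ligases to the receptors, went from 8.55, 8.46 and 8.49 to 10.14, 10.16 and 9.91, a change of 1.57 (SE 0.09, adjusted p = 2.73e-11). In both genes every treated array was above every untreated one by more than 1 log2 unit. Bambi, a decoy receptor without kinase activity, read 7.73, 7.74 and 7.93 against 8.72, 8.86 and 8.78, a rise of 0.98. Tmeff1, a membrane protein that blocks Nodal and BMP signals, rose by 1.11, and the ubiquitin ligase Smurf2 by 0.33, while its relative Smurf1 changed by 0.09 and did not pass the test. Of the 13 feedback genes measured 7 rose and 0 fell, with a median log2 change of 0.33.

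Of the Smads that carry the signal, Smad9 alone rose. It went from 7.48, 7.61 and 7.52 to 8.88, 8.86 and 8.82, a change of 1.32 (SE 0.08, adjusted p = 3.71e-11), with no overlap. Smad1 (0.24), Smad5 (-0.17) and the common Smad4 (0.02) did not pass the test. Smad3, which serves TGF-β and activin receptors, fell by 0.37, from 11.29, 11.24 and 11.29 to 10.88, 10.99 and 10.85. Among the 17 Smads and cofactors 3 rose and 1 fell, with a median of 0.02. The others that rose were Skil, a repressor of Smads (0.52), and Zfp423, a zinc finger partner of Smads (0.36). The groups of Zfp423 overlapped, and its call was lost without untreated replicate 2, BMP4 replicate 1 or BMP4 replicate 3 (adjusted p up to 0.0972).

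Among 31 genes listed as targets of BMP-activated Smads, 22 rose and 0 fell, with a median log2 change of 0.62 against 0.02 over all genes. The share that rose was 71.0%, where 4.40% of all genes did. Besides the Id and Smad genes these included Atoh8, a basic helix-loop-helix factor, whose arrays went from 8.29, 8.25 and 8.26 to 10.03, 10.09 and 9.95 (change 1.76). The homeobox gene Dlx2 went from 9.02, 9.20 and 9.07 to 10.62, 10.73 and 10.51 (1.53), and the Hairy-related repressor Hey1 from 8.06, 8.10 and 8.11 to 9.53, 9.57 and 9.42 (1.41). The groups of these genes did not overlap. Other well-known BMP targets showed no called change at 8 h, namely Msx1 (0.15), Msx2 (0.15), Gata6 (0.01), Dlx5 (0.32) and the hepcidin gene Hamp (0.18).

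**Figure D2:**
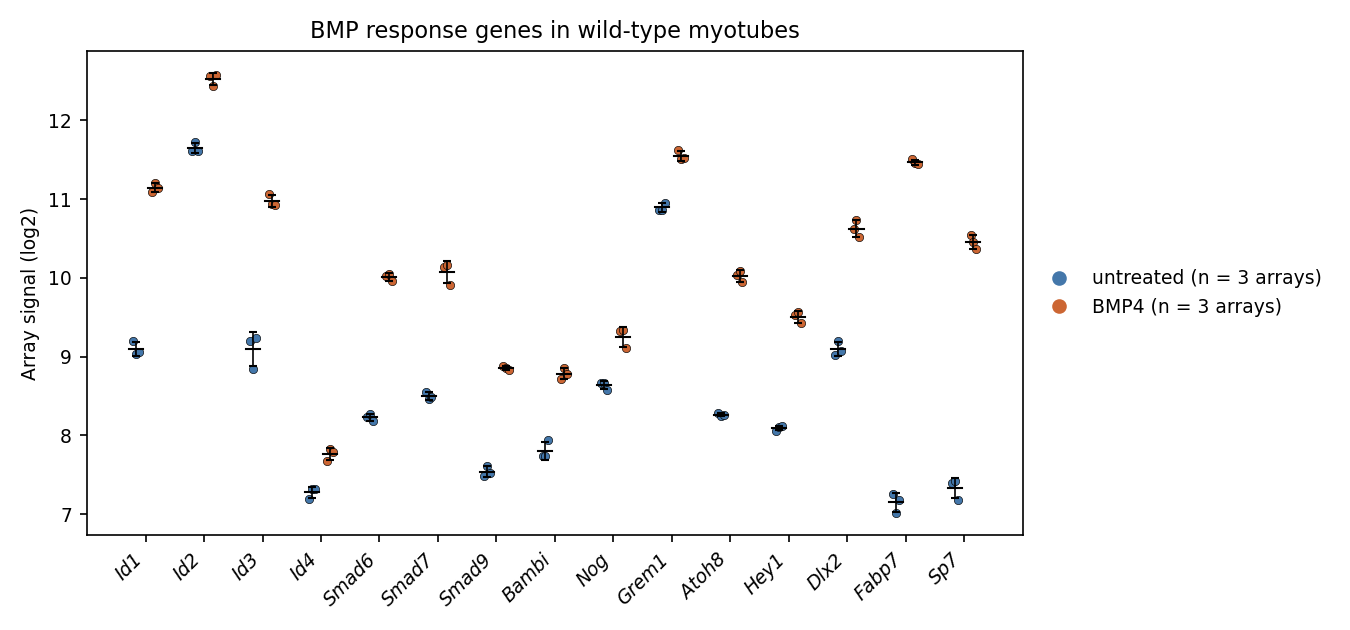
Log2 array signal of 15 genes that rose after BMP4 in wild-type myotubes, among them Id, Smad, antagonist and homeobox genes. Points are single arrays (blue untreated, orange BMP4, 3 each), and bars show the mean ± SD; in every gene shown the orange points lie above the blue ones, with the widest gap for Fabp7 and the narrowest for Id4.

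The promoters of some of these genes show the letters that BMP-activated Smads are known to bind. Windows of 300 bases, 250 before and 50 after an annotated start, were taken from the RefSeq table of build GRCm38.p6 and matched 15614 of the genes tested with 19177 windows, including 683 of the genes that rose and 650 of those that fell. The stretches below were chosen because the genes rose and their window holds the GC-rich Smad letters GGCGCC or, for Smad6, the palindromic Smad box GTCTAGAC, which are in capitals.
Id2, chr12:25096278-25096342, minus strand: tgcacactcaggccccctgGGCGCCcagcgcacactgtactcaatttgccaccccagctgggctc
Id4, chr13:48260928-48261013, plus strand: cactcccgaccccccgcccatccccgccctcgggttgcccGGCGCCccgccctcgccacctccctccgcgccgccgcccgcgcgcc
Smad9, chr3:54755491-54755576, plus strand: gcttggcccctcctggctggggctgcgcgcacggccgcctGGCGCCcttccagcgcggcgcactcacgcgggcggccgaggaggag
Dlx2, chr2:71546808-71546893, minus strand: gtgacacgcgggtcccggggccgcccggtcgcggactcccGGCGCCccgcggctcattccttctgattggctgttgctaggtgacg
Wnt11, chr7:98834935-98835111, plus strand: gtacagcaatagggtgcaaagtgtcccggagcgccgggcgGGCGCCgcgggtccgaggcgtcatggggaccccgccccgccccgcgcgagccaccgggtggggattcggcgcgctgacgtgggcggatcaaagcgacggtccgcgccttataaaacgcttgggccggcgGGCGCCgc
Smad6, chr9:64022056-64022103, minus strand: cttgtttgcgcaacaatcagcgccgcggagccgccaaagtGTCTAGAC
Each stretch reads 5′ to 3′ on the strand of its gene.

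Because both motifs are palindromes, a match on 1 strand is also a match on the other. GGCGCC was in 16.4% of the windows of all genes tested, in 23.8% of those of genes that rose and in 20.2% of those of genes that fell. The mean GC content of these windows was 57.2%, 60.5% and 61.1%, and its part in the shares was not tested. GTCTAGAC was in 0.245% of all windows, 0.220% of those of risen genes and 0.539% of those of fallen genes. The myogenic E-box letters CAGCTG were in 16.3%, 18.4% and 21.6%, CACGTG in 8.24%, 8.34% and 8.41%, and the cyclic AMP response letters TGACGTCA in 2.37%, 1.21% and 1.94%. The windows of Id3, Fabp7, Cxcr4, Rgs4 and Fgf9 held none of these letters. The shares describe the letters in these windows and not binding.

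Ligands of the pathway scarcely moved. Of 16 BMP and related GDF ligands 1 rose and 1 fell (6.25% each, where 4.40% and 4.37% of all genes did). The median change was 0.01. Bmp4 itself read 9.73, 9.81 and 9.62 untreated and 9.58, 9.53 and 9.38 with BMP4, a change of -0.23 with an adjusted p of 0.282 in limma. It passed only where 1 array of each myoblast group that deviated together was left out of the fit (adjusted p = 0.0388). Bmp8a fell by 0.59. Bmp5 rose by 0.40, a call lost on leaving out any of the 6 arrays (adjusted p from 0.0644 to 0.142), under quantile normalization and under median centring.

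Secreted antagonists moved both ways. Of 17 measured, 4 rose and 2 fell, with a median of 0.07. Noggin (Nog), which binds BMP4 directly, went from 8.66, 8.67 and 8.58 to 9.32, 9.33 and 9.11, a rise of 0.62 (SE 0.08, adjusted p = 1.67e-05). Gremlin (Grem1) went from 10.86, 10.87 and 10.96 to 11.62, 11.51 and 11.52, a rise of 0.65. Neither antagonist's groups overlapped. Fstl1 rose by 0.36 and Nbl1 by 0.33. Chordin (Chrd), which also traps BMPs outside the cell, fell by 0.60, from 10.31, 10.15 and 10.32 to 9.74, 9.73 and 9.52. Follistatin (Fst), which traps activin, was lower by 0.27, a call lost without untreated replicate 1 or 3 or BMP4 replicate 3 (adjusted p from 0.0257 to 0.0708 over the fits that left out 1 array).

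Receptors changed mainly through the coreceptors. Of 14 receptors and coreceptors 1 rose and 3 fell, with a median of -0.02. Rgma and Rgmb, repulsive guidance molecules that act as BMP coreceptors, went from 9.40, 9.54 and 9.47 to 8.40, 8.35 and 8.25 (change -1.14) and from 11.04, 11.07 and 11.12 to 10.19, 10.32 and 10.19 (change -0.85). In both the treated arrays lay below every untreated one. The coreceptor Tgfbr3 was lower by 0.43, a call lost without untreated replicate 2 or BMP4 replicate 3 (adjusted p up to 0.0538). The type I receptor Acvr1 rose by 0.33. Bmpr1a (-0.03), Bmpr1b (-0.23) and the type II receptor Bmpr2 (0.22) did not pass. Musk read 12.72, 12.69 and 12.77 untreated and 12.84, 12.78 and 12.84 with BMP4, a change of 0.09 (SE 0.07) with an adjusted p of 0.545.

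The neighbouring activin and TGF-β arms showed rises of ligand genes. Inha, the inhibin α subunit, rose by 1.02, from 11.16, 11.25 and 11.17 to 12.33, 12.19 and 12.12. Inhba, the activin A subunit, rose by 0.56 and Tgfb1 by 0.77. Of 14 activin and myostatin genes 3 rose and 1 fell (median 0.03). Of 21 TGF-β pathway genes and targets 5 rose and 3 fell (median 0.04). The risen ones included Snai2, a repressor of epithelial genes (0.84), Skil and Ltbp2 (0.46), and the fallen ones the receptor Tgfbr2 (-0.47) and Angptl4 (-0.53). Myostatin (Mstn), at 0.14, did not pass.

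Genes of the osteoblast program moved in part. Of 20 measured 5 rose and 1 fell, and the median was 0.16. Beside Sp7, tissue-nonspecific alkaline phosphatase (Alpl), the enzyme of mineralising cells, went from 7.29, 7.20 and 7.14 to 8.30, 8.33 and 8.33, a rise of 1.11 (SE 0.11, adjusted p = 1.16e-07). The homeobox gene Dlx3 rose by 0.98, from 8.15, 7.86 and 7.84 to 8.88, 9.16 and 8.76. Dmp1, a matrix protein of osteocytes, was higher by 0.53, a call lost without untreated replicate 1 (adjusted p = 0.0580). Fkbp11 was higher by 0.30, a call lost without untreated replicate 1 or 2 or BMP4 replicate 2 or 3 (adjusted p up to 0.125). The parathyroid hormone receptor Pth1r was lower by 0.37, a call lost without untreated replicate 1 or 3 or BMP4 replicate 3 (up to 0.248). Later markers did not pass the test at 8 h, among them bone sialoprotein (Ibsp, 0.07), Col1a1 (0.18) and Phex (0.05).

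Some cartilage and fat genes rose. Of 20 chondrocyte genes 3 rose and 0 fell (median 0.10). Prg4, the lubricin of joint surfaces, rose by 0.89 and the hypertrophic collagen Col10a1 by 0.56, while Ucma, higher by 0.40, lost its call without untreated replicate 1 or 2 or BMP4 replicate 2 or 3 (adjusted p up to 0.118). Sox9 (0.18), Col2a1 (0.12) and Acan (0.06), which define cartilage, changed by amounts that did not pass. Of 15 adipocyte genes 4 rose and 0 fell (median 0.14), among them lipoprotein lipase (Lpl, 0.89) and the nuclear receptor Pparg (0.36). When the 6 arrays were fitted alone this count was 2. Fabp4 (0.10) and Adipoq (0.22) did not pass.

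The homeobox genes that passed the test had all risen. Of 23 Msx, Dlx and related genes 6 rose, led by Prrx2, which went from 10.24, 10.17 and 10.23 to 11.73, 11.80 and 11.74 (change 1.55, adjusted p = 2.17e-13), and followed by Dlx2 (1.53), Dlx3 (0.98) and Dlx1 (0.93). Of 37 Hox genes, which record position along the body and limb, 8 rose and 0 fell, and the median was 0.11. The largest were Hoxc13 (0.94), Hoxc11 (0.86) and Hoxc9 (0.55), genes of 1 cluster. Hoxc13 read 9.40, 9.57 and 9.32 untreated and 10.38 on each BMP4 array.

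Other signalling pathways changed at particular members. In the Notch pathway 5 of 26 genes rose and 3 fell (median 0.02). Lfng, a glycosyltransferase that modifies Notch, rose by 1.53, from 7.52, 7.33 and 7.41 to 8.97, 9.08 and 8.81. The ligand Jag1 rose by 0.63, the repressors Hes6 by 0.62 and Hes1 by 0.50, while Heyl fell by 0.69. Notch1 (-0.34) and Notch3 (-0.33) lost their calls without BMP4 replicate 3 (adjusted p = 0.0632 and 0.0644) and in the fit of the 6 arrays alone, which left 1 fallen gene.

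In the Wnt list 14 of 54 genes rose and 3 fell, with a median of 0.07. Wnt11, a non-canonical ligand, went from 8.05, 8.16 and 8.26 to 9.35, 9.04 and 9.13, a rise of 1.02 (SE 0.11, adjusted p = 4.39e-07). Notum, an enzyme that inactivates Wnt ligands, rose by 0.89, the receptor Fzd5 by 0.86 and the soluble inhibitor Sfrp4 by 0.71. Wnt10a fell by 0.72 and Fzd9 by 0.43. The feedback gene Axin2 changed by -0.02 and did not pass.

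FGF genes moved in opposite directions, with 5 of 33 higher and 5 lower (median 0.00). Fgf9, a secreted ligand of FGF receptors, showed the largest fall of any gene tested. It read 10.01, 9.85 and 9.87 untreated and 8.05, 7.96 and 7.99 with BMP4, a log2 change of -1.91 (SE 0.10, adjusted p = 6.99e-12), or 3.75-fold lower, with no overlap. Fgf2 rose by 1.12, from 8.62, 8.56 and 8.68 to 9.87, 9.74 and 9.61. Feedback inhibitors of FGF receptors parted, since Spry2 rose by 1.23 and Spry1 fell by 0.78. The receptors parted too, with Fgfr2 higher by 0.58 and Fgfr4 lower by 0.68.

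Secreted growth factors included several risen genes. Of 21 angiogenic and related factors 8 rose and 3 fell, with a median of 0.20. Placental growth factor (Pgf) went from 9.12, 9.01 and 9.07 to 10.47, 10.35 and 10.51, a rise of 1.38. The EGF receptor ligands Hbegf and Ereg rose by 1.06 and 0.71 and Pdgfc by 0.67, while Pdgfb fell by 0.68. Among 18 IGF pathway genes 2 rose and 5 fell, and 1 and 2 did so when the 6 arrays were fitted alone. The binding protein Igfbp3 fell by 0.56 and Igfbp4 rose by 0.39.

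Immediate early genes, which respond fast to growth signals, stood higher in part at 8 h, with 10 of 29 risen, 2 fallen and a median of 0.20. Junb rose by 0.93, from 9.25, 9.21 and 9.36 to 10.24, 10.19 and 10.17, Dusp1, a phosphatase of MAP kinases, by 0.70 and Jun by 0.64. Egr3 moved the other way, from 10.79, 11.10 and 11.10 to 9.92, 9.78 and 9.84, a fall of 1.15 on the log2 scale, which left no overlap. Fos (0.35), Egr1 (0.19) and Myc (-0.06) did not pass.

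Genes of prostaglandin synthesis and use rose in 6 of 21 cases and fell in 0 (median 0.09). Ptgs2, the inducible cyclooxygenase, went from 11.27, 11.30 and 11.22 to 12.34, 12.38 and 12.45, a rise of 1.13 (SE 0.08, adjusted p = 1.80e-09). Hpgd, which degrades prostaglandins, rose by 1.22, from 8.46, 8.58 and 8.53 to 9.81, 9.59 and 9.83. The receptor Ptger4 rose by 1.07 and the transporter Slco2a1 by 0.56. Among chemokines, cytokines and their receptors 5 of 25 rose and 3 fell, with Lif (0.65) and Cxcl14 (0.55) higher beside Cxcr4, and Il33 (-0.64) and Ccl2 (-0.48) lower. When the 6 arrays were fitted alone, 3 of that list rose and 2 fell. Among 17 RGS genes 3 rose and 2 fell, and 1 fell with the 6 arrays fitted alone. Rgs4 went from 6.84, 6.62 and 6.74 to 8.41, 8.18 and 8.37, Rgs12 rose by 0.59 and Rgs16 fell by 0.41.

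Matrix, guidance and channel genes changed at scattered members. Of 27 matrix proteases and inhibitors 6 rose and 4 fell (median 0.02), with Adamts9 (0.71), the urokinase receptor Plaur (0.64), Mmp11 (0.57) and Timp3 (0.57) higher, and Timp4 (-1.18), Adamts5 (-0.66) and urokinase itself, Plau (-0.56), lower. The 5 other probe sets of Adamts9 gave rises from 0.59 to 1.58. Of 32 listed collagen chains 2 rose (6.25%, where 4.40% of all genes did) and 0 fell, Col12a1 by 0.49 and Col8a2 by 0.34. The list leaves out Col10a1, a cartilage gene above, which rose by 0.56. The call of Col8a2 was lost without untreated replicate 1 or 2 or BMP4 replicate 2 or 3 (adjusted p up to 0.158). It was also lost in the fit of the 6 arrays alone. Of 40 axon guidance genes 7 rose and 4 fell. Sema6d (1.11), the netrin receptors Unc5b (0.98) and Unc5c (0.63) and the ephrin receptor Epha7 (0.88) were among the former and Sema7a (-0.96) and Sema6a (-0.59) among the latter. Potassium channel genes also parted, with Kcnf1 higher by 1.20 and Kcnk5 and the inward rectifier Kcnj2 lower by 1.00 and 0.90. Of the carbonic anhydrases Car2 and Car13 both rose by 0.92, and Car3, the abundant muscle form, by 0.28.

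Most muscle genes did not pass the test at this time. Of the 12 muscle markers 0 rose and 1 fell, and the median of the 62 sarcomere genes was -0.04. The determination factor Myod1 (0.10), its follower Myog (-0.07) and the satellite cell factor Pax7 (0.00) did not pass the test. Of 25 myogenic regulators 5 rose and 1 fell (median 0.12). Myf5, the earliest of the determination factors, went from 9.05, 8.99 and 9.12 to 9.71, 9.78 and 9.71, a rise of 0.68 (SE 0.08, adjusted p = 2.63e-06). Mdfi, an inhibitor of myogenic factors, rose by 0.63, Eya4 by 0.58 and Pax3 by 0.36. Myf6 (0.49) lost its call without untreated replicate 1 or 3 or BMP4 replicate 1 or 3 (adjusted p up to 0.0718), and Mef2d (-0.44) lost it without any 1 of the 6 arrays (0.0576 to 0.0854). The other probe set of Mef2d gave -0.72.

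Genes of myoblast fusion fell more often than they rose, with 7 lower and 3 higher among 25 and a median of -0.10. With the 6 arrays fitted alone the counts were 4 and 2. Mymx, the small membrane protein that completes fusion, went from 11.15, 10.99 and 11.31 to 10.42, 10.41 and 10.22, a fall of 0.80 on the log2 scale (SE 0.09, adjusted p = 1.67e-06). Its partner Mymk changed by -0.14 and did not pass. M-cadherin (Cdh15) fell by 0.49, from 12.22, 12.16 and 12.30 to 11.68, 11.80 and 11.73, and the Rac activator subunit Elmo2 by 0.45. Dock5, a Rac activator, rose by 0.44 and the metalloprotease Adam12 by 0.33.

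In the sarcomere list 4 genes rose (6.45%, where 4.40% of all genes did) and 7 fell (11.3%, where 4.37% did). With the 6 arrays fitted alone 5 rose and 5 fell. Myh15, a slow-type myosin heavy chain, went from 5.90, 5.48 and 5.71 to 7.25, 7.07 and 7.33, a rise of 1.53 (SE 0.08, adjusted p = 2.14e-11). Its untreated arrays lay below 5.99, the 25th percentile of all signals that served as the limit for dim genes, so the size of the change is uncertain. Nebl, a relative of nebulin, rose by 1.08, from 6.97, 6.96 and 6.82 to 8.05, 7.94 and 7.99, while its other probe set gave 0.40 (adjusted p = 0.0111). The muscle protein Nrap rose by 0.36. Myh2 was higher by 0.41, a call lost without untreated replicate 1 (adjusted p = 0.0505). The fast myosin Myh4 fell by 0.42, Klhl40 by 0.55, Ankrd2 by 0.41 and Mybph by 0.28. In a bulk sample a smaller number of cells of a type and less RNA per cell cannot be told apart.

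At the neuromuscular synapse 3 of 34 genes rose and 7 fell (median -0.05). Erbb3, a neuregulin receptor, went from 11.69, 11.65 and 11.78 to 10.74, 10.84 and 10.76, a fall of 0.93 on the log2 scale (SE 0.06, adjusted p = 4.64e-10). Its partner Erbb2 fell by 0.32 and Colq, the collagen that anchors acetylcholinesterase, by 0.57. Dok7, the adaptor that activates MuSK from inside the cell, went from 10.19, 10.03 and 10.22 to 10.78, 10.85 and 10.75, a rise of 0.65. Wnt11 and Wnt4 (0.43), ligands that bind MuSK in other settings, rose as well. The agrin receptor Lrp4 (0.08), rapsyn (Rapsn, -0.07) and agrin (Agrn, -0.04) did not pass. Of 35 genes of calcium handling 0 rose and 2 fell (5.71%, where 4.37% of all genes did), Camk2a by 0.49 and Ryr3 by 0.30. Under quantile normalization 1 rose. Of 25 atrophy and autophagy genes 0 rose and 3 fell, led by the ubiquitin ligase subunit Asb2 (-0.79) and Fbxo40 (-0.43). The third, Fbxl22 (-0.33), lost its call without untreated replicate 2 or BMP4 replicate 1 (adjusted p up to 0.0694).

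Rows named for muscle microRNA genes were lower in 4 of 7 cases, with a median of -0.43, but 3 of the 7, Mir1a-1, Mir499 and Mir208a, were dim (below 5.99) on all 6 arrays. Mir1a-2 read 6.52, 6.45 and 6.32 untreated and 5.06, 4.66 and 4.90 with BMP4, a change of -1.56 (SE 0.17, adjusted p = 7.74e-07), with the treated arrays in the dim range. The call of Mir133a-1 (-0.57) was lost without untreated replicate 2 (adjusted p = 0.0590), that of Mir133a-2 (-0.70) without untreated replicate 1 or BMP4 replicate 1 (up to 0.0793), and that of Mir1a-1 (-0.43) without any array but BMP4 replicate 1 (up to 0.117). These probe sets read long RNA, so the values concern the transcripts that hold the microRNAs and not the mature molecules.

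Other falls lay in regulators of growth and metabolism. E2f2, an activator of replication genes, went from 9.99, 9.99 and 10.02 to 8.49, 8.54 and 8.36, a fall of 1.53 on the log2 scale (adjusted p = 6.29e-10). E2f2 was 1 of 4 that fell among the 59 cell cycle and replication genes (6.78%, where 4.37% of all genes did). Beside these, 2 rose (3.39%, where 4.40% of all genes did), and the median was -0.06. With the 6 arrays fitted alone 2 fell and 1 rose. Rrm2, a subunit of ribonucleotide reductase, rose by 0.71. E2f1 (-0.04), Mki67 (-0.14) and Cdkn1c (-0.07) did not pass. Mest, an imprinted gene of the mesoderm, went from 11.10, 11.15 and 10.99 to 9.74, 9.68 and 9.27. Ppargc1a, the coactivator that drives mitochondrial genes, went from 10.14, 10.10 and 10.08 to 9.29, 9.16 and 9.14. It was the only fallen gene among 32 of the respiratory chain list (3.12%), of which 0 rose. Dhcr7, the last enzyme of cholesterol synthesis, fell by 0.61.

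Interferon-stimulated genes fell in 7 of 23 cases and rose in 0 (median -0.17), and 4 fell when the 6 arrays were fitted alone. Rsad2, an antiviral enzyme, read 7.48, 8.17 and 7.28 untreated and 6.97, 6.53 and 6.98 with BMP4, a change of -0.82 (SE 0.16, adjusted p = 9.22e-04). Mx2 read 7.94, 8.22 and 7.84 against 7.61, 7.20 and 7.09 (change -0.70), and Ifit3 10.40, 10.77 and 10.19 against 10.15, 9.66 and 9.60 (change -0.65). Untreated replicate 2 was the highest array for all 3 genes, and the groups of Ifit3 stood barely apart, at 10.15 against 10.19. The calls of Rsad2 and Ifit3 were lost in the fit of the 6 arrays alone.

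**Figure D3:**
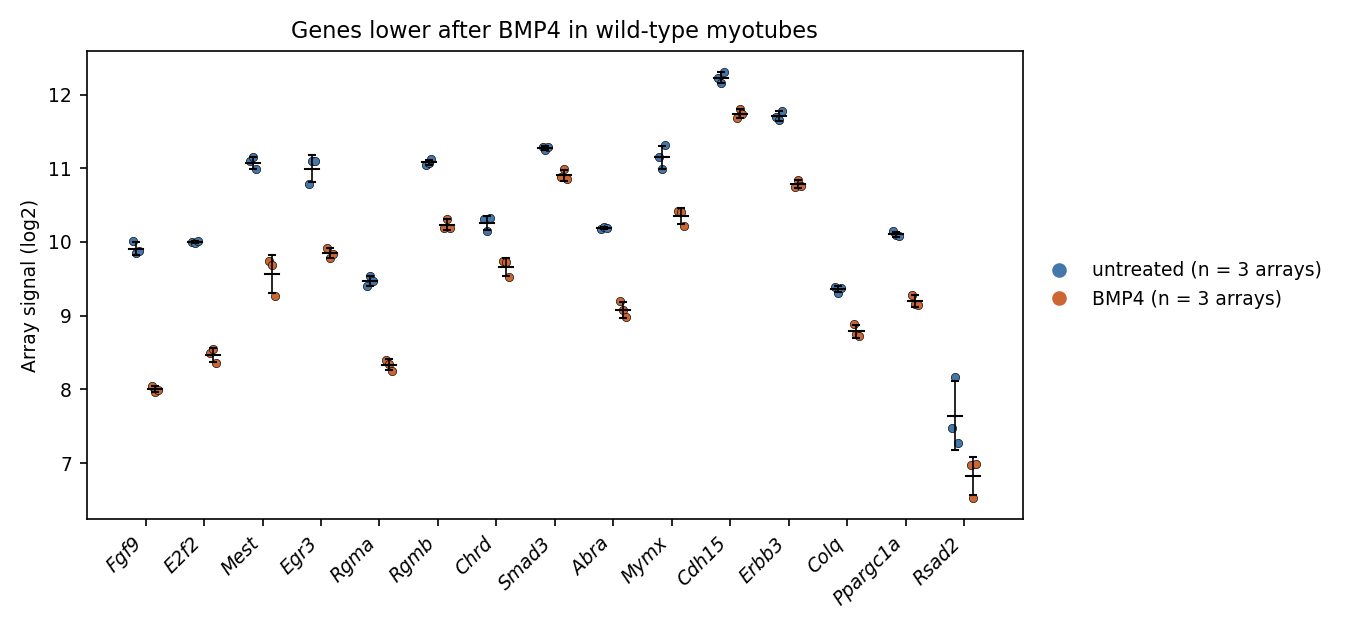
Log2 array signal of 15 genes that fell after BMP4 in wild-type myotubes, from Fgf9 to Rsad2. Points are single arrays (blue untreated, orange BMP4, 3 each), and bars show the mean ± SD; every orange point lies below the blue points of its gene, and the untreated arrays of Rsad2 are spread the most, from 7.28 to 8.17.

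**Figure D4:**
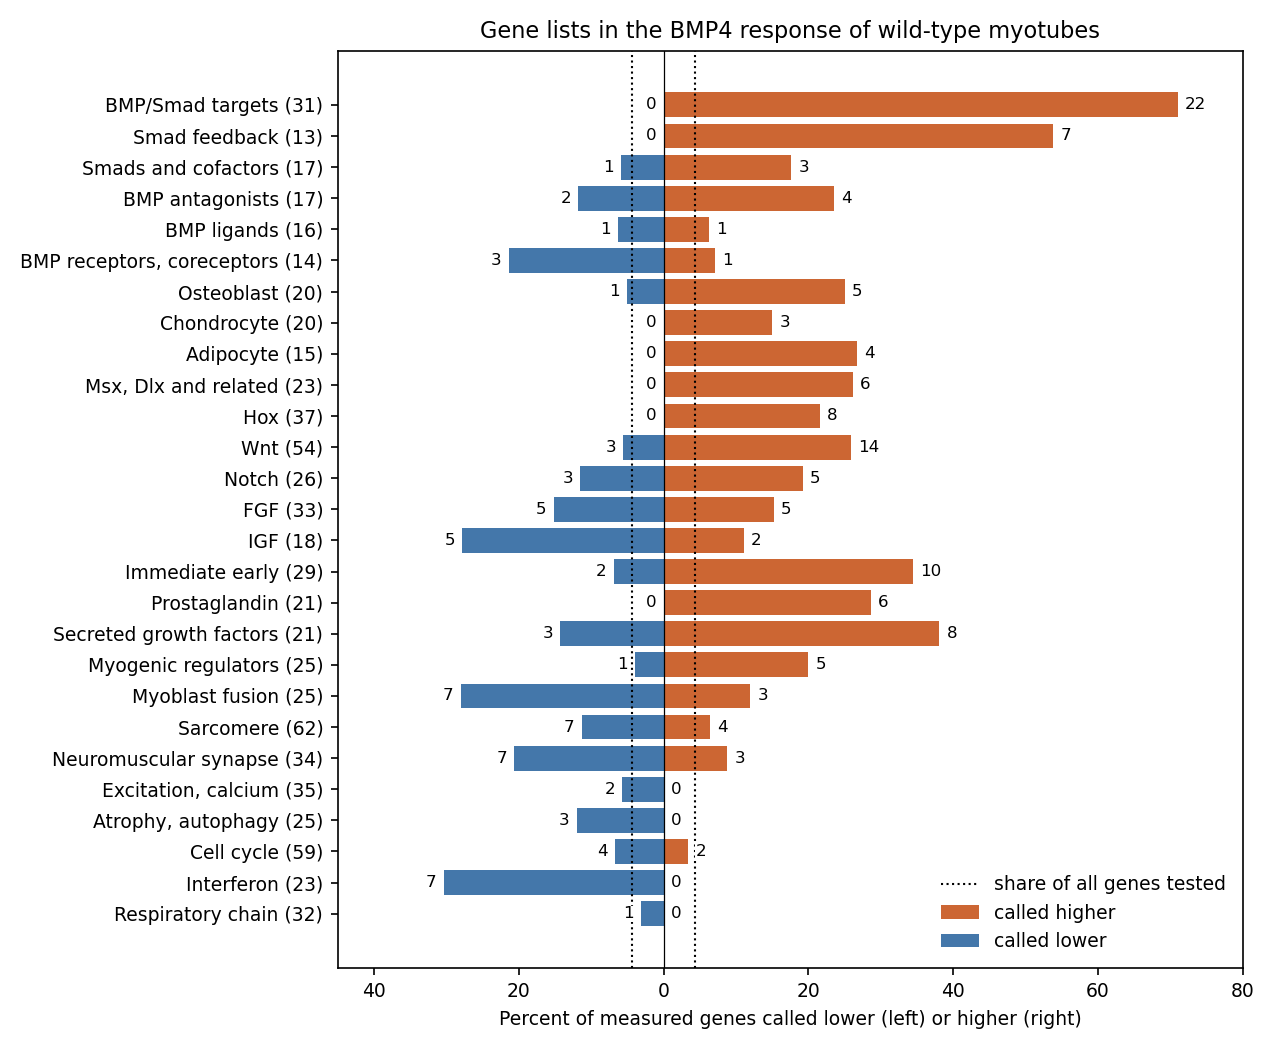
Share of the measured genes of the lists drawn, the muscle microRNA rows not among them, that were called higher (right of 0) or lower (left of 0) after BMP4 in wild-type myotubes, in percent, with the number of genes at each bar. Dotted lines mark the shares of all 19938 genes, 4.40% higher and 4.37% lower; the Smad target list reaches 71.0% higher, and the interferon list 30.4% lower.

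Whether the response was that of wild-type muscle cells at any stage was addressed by setting it against the response of myoblasts of the same line. Tgm2, Cxcr4 and Slc10a4 responded more strongly upward in myotubes, Fgf9 and Lrrc26 more strongly downward, and Ptgs2 and Avpr1a rose more in myoblasts. The difference of the 2 responses was tested as an interaction in limma, and 682 genes passed, which is 3.42% of those tested. Of the 1749 genes that responded in myotubes 372 did so, or 21.3%. In 230 of them (128 rises and 102 falls) the difference lay in the direction of the myotube response. These include genes whose change in myoblasts was opposite. In 142 the myoblast response was larger in the same direction. The same myotube arrays chose these genes and enter the difference, so this split is a description. Temperature, medium and serum deprivation differ between the stages with the cells and cannot be told apart from stage.

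Tgm2, a transglutaminase, had opposite responses. It rose by 0.56 in myotubes (9.79, 9.71 and 9.79 to 10.40, 10.32 and 10.25) and its change in myoblasts was -1.48, a difference of 2.04 (SE 0.12, adjusted p = 2.1e-09). Cxcr4 rose by 2.12 in myotubes and 0.66 in myoblasts (difference 1.46), and the bile acid transporter relative Slc10a4 changed by 1.44 and 0.01 (difference 1.43), with its myoblast signal in the dim range, at means of 5.82 and 5.83. Lrrc26, an auxiliary subunit of potassium channels, changed by -1.53 in myotubes, from 9.78, 9.83 and 9.78 to 8.50, 8.32 and 7.99, and by 0.11 in myoblasts (difference -1.64). Fgf9 changed by -1.91 and -0.45 (difference -1.46), from an untreated mean of 9.91 in myotubes and 7.53 in myoblasts. Its treated mean in myotubes, 8.00, was still above that of untreated myoblasts. In the other direction Ptgs2 changed by 1.13 in myotubes and 2.38 in myoblasts (difference -1.26), from an untreated mean of 11.26 in myotubes and 10.34 in myoblasts. The vasopressin receptor Avpr1a changed by 0.79 and 2.00 (difference -1.22). There were 33 genes called in opposite directions at the 2 stages.

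The response of wild-type myotubes was also set against that of MuSK-null myotubes, which had the same medium, time and dose. Sp7, Dhrs3 and Emx2 rose strongly in the wild-type line and little or not in the null line, Fgf9 fell in the wild-type line, and Id2 and Prr9 rose more in the null line. The difference of the responses passed in 640 genes, or 3.21% of those tested, and among the 1749 responders in 326, or 18.6%. In 241 of these (139 rises and 102 falls) the difference lay in the direction of the wild-type response. They include genes whose change in the null line was opposite. In 85 the response of the null line was larger in the same direction. The count of 326 was 210 without untreated wild-type replicate 2. Again the responders were chosen on arrays that enter the difference.

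Sp7 rose by 3.12 in wild-type and by 0.45 in MuSK-null myotubes, a difference of 2.67 (SE 0.19, adjusted p = 9.66e-09). Dhrs3 changed by 1.60 and 0.16 (difference 1.44), going from 9.29, 9.11 and 9.00 to 10.73, 10.85 and 10.64 in wild type. The homeobox gene Emx2 changed by 1.05 and -0.27 (difference 1.32), with a dim treated mean of 5.93 in the null line. Fgf9 changed by -1.91 and -0.05 (difference -1.86). Its untreated mean was 9.91 in wild type and 8.40 in the null line. Id2 rose by 0.88 in wild type and by 2.63 in the null line (difference -1.75), from untreated means of 11.64 and 9.23 to treated means of 12.53 and 11.86. Prr9 rose by 0.74 and 2.76 (difference -2.02), from dim untreated wild-type arrays at 5.53, 5.79 and 5.54. Id1, Id3 and Smad6 are not among the genes with the largest differences of either kind.

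In 72 genes, 0.361% of those tested, the response was called, and both differences were called in the direction of the response, 47 of them rises and 25 falls. Of these, 36 (23 rises and 13 falls) passed the test in none of the other 3 responses of the series, those of wild-type myoblasts, MuSK-null myoblasts and MuSK-null myotubes. A missed threshold there does not show the absence of a response. Grin3a, an NMDA receptor subunit, went from 6.31, 6.67 and 6.50 to 7.67, 7.74 and 7.50 (change 1.15), where wild-type myoblasts and null myotubes changed by 0.08 and -0.02. Arc, an immediate early gene of neurons, went from 8.48, 8.52 and 8.45 to 9.64, 9.74 and 9.47 (1.13, against 0.17 and -0.02). Egr3 changed by -1.15 against 0.04 and -0.17.

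Timp4, a metalloprotease inhibitor, went from 8.28, 8.10 and 8.44 to 7.45, 7.14 and 6.70 (-1.18, against -0.09 and -0.06), and its mean in untreated wild-type myoblasts and null myotubes was 5.71 and 5.74, in the dim range. Mxd1, a partner of Max that opposes Myc, went from 10.25, 9.99 and 10.39 to 9.10, 9.06 and 9.08 (-1.13, against -0.24 and -0.02). Myh15 also belongs here, but its signal in wild-type myoblasts and null myotubes was between 4.86 and 4.94, so the size of its differences (1.46 from myoblasts and 1.56 from null myotubes) cannot be read.

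**Figure D5:**
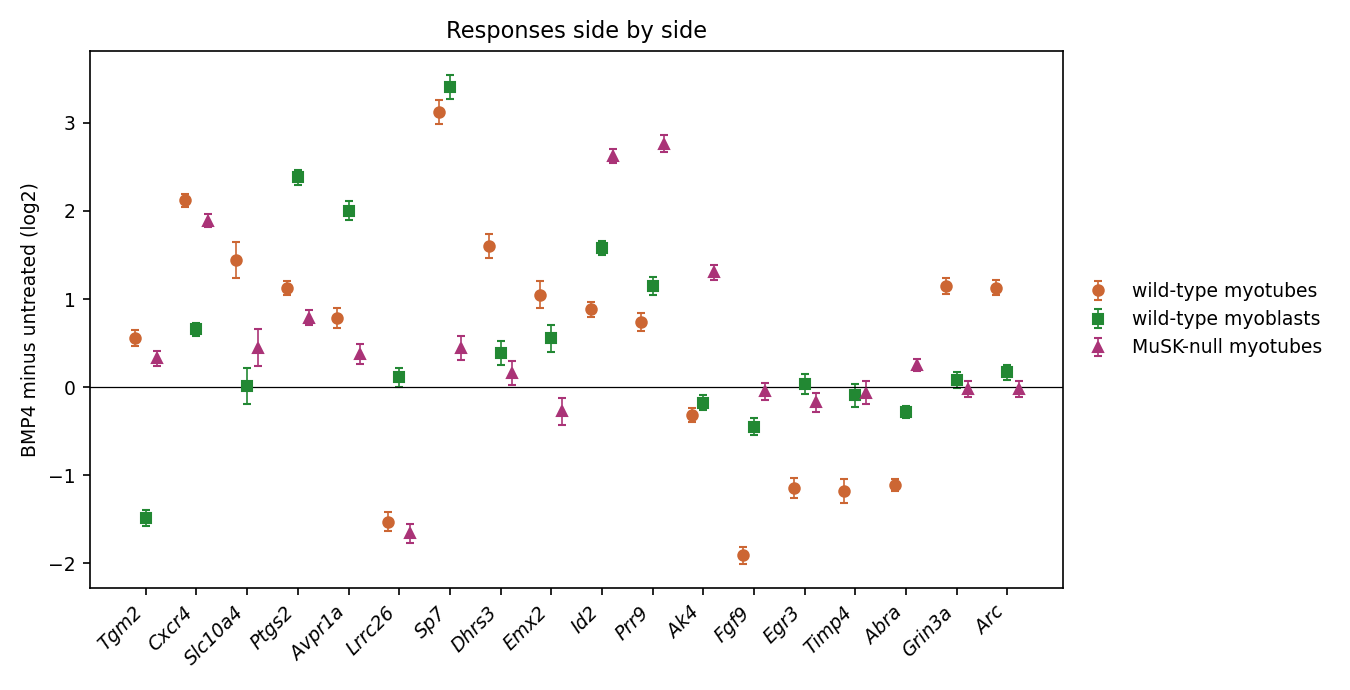
Log2 change after BMP4 (± SE, 3 treated against 3 untreated arrays) of 18 genes in wild-type myotubes, wild-type myoblasts and MuSK-null myotubes. Sp7 is high in both wild-type stages and at 0.45 in null myotubes, Tgm2 is above 0 in myotubes and at -1.48 in myoblasts, and Grin3a and Arc are near 0 outside wild-type myotubes.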

How the data were processed

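Labels group the 24 arrays by genotype, stage and treatment, 3 per group. The authors deposited log2 values, 1 per probe set and array, in a series matrix; no label names the scale, and the range, 2.61 to 15.02 on the 6 arrays, fits log2. The submitters' processing notes name Affymetrix Expression Console and Partek but no version, and how probes were background-corrected, summarised and normalized is not given in the sources used. Arrays hold no counts, so their number limits the precision. Of 35556 rows the platform annotation gives 1 gene to 21789, several to 1621 and none to 12146. Of the 21789, 21698 matched the RefSeq table of GRCm38.p6 and 0 symbols changed. For 999 genes with several rows the row with the highest mean over 24 arrays was kept, leaving 19938 genes.

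limma 3.58.1 (R 4.3.3) fitted 1 mean per group to all 24 arrays (16 residual degrees of freedom), with moderated statistics and Benjamini-Hochberg adjustment over the 19938 genes; calls were made at adjusted p under 0.05. Differences between responses were interaction contrasts. The fit was tested on simulated data. Python 3.11.15 and pandas 2.3.3 made the tables. A median SE of a change was 0.09.

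The genes and lists were chosen with earlier results of these data known. Lists are given by counts and medians, with no test. Every list count is to be read beside the 4.40% of all genes that rose and the 4.37% that fell. Named are the 15 largest rises and falls whose groups did not overlap, at most 4 called genes of a list in each direction, the 8 largest responders in each direction of each difference, and a set of BMP and muscle genes. Fkbp11, Pax3, Hes1, Smurf2, the genes of the last comparison, and members given as not passing lie outside that rule and were chosen after their values were seen. The call of Smurf2 was not checked under the alternatives. Alternatives were a fit of the compared groups or of the myotubes alone, trend and robust moderation, a filter on dim genes (under 5.99), quantile normalization, median centring, each probe set, a replicate block, a 1.5-fold minimum and leaving out each array. Leaving out 4 myoblast arrays that deviated together was added after seeing the data.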

Additional observations from a re-analysis of the deposited data

Results flagged for a closer look

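The results below are differences between the BMP4 response of wild-type myotubes and that of another group, each tested as an interaction in limma.

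Against wild-type myoblasts, 372 of the responding genes differed. The largest differences of the log2 change (myotubes minus myoblasts) were those of Tgm2 (2.04), Myh15 (1.46), Cxcr4 (1.46) and Slc10a4 (1.43) upward, and of Lrrc26 (-1.64), Fgf9 (-1.46), Ptgs2 (-1.26) and Avpr1a (-1.22) downward. Myh15 and Slc10a4 were dim (below 5.99) in myoblasts, at means of 4.88 and 4.94 and of 5.82 and 5.83, so the size and the rank of their differences cannot be read.

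Against MuSK-null myotubes, 326 of the responding genes differed. The largest differences (wild type minus null) were those of Sp7 (2.67), Myh15 (1.56), Dhrs3 (1.44) and Emx2 (1.32) upward, and of Prr9 (-2.02), Fgf9 (-1.86), Id2 (-1.75) and Ak4 (-1.62) downward. Myh15 was dim in null myotubes, at means of 4.89 and 4.86, and on the untreated wild-type arrays, so its size and rank cannot be read here either. The treated null mean of Emx2 (5.93) and the untreated wild-type arrays of Prr9 (5.53, 5.79 and 5.54) were dim too. Ak4, an adenylate kinase of mitochondria, read 8.09, 8.10 and 7.97 untreated and 7.74, 7.76 and 7.72 with BMP4 in wild type (change -0.31), and it rose by 1.30 in null myotubes. Its other probe set gave a difference of -0.01 (adjusted p = 0.995), and the call of its wild-type response was lost without untreated replicate 1 or 2 or BMP4 replicate 3 (adjusted p up to 0.0699).

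Both differences were called in the direction of the response for 72 genes.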

How the results depend on the processing

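The counts were 878 higher, 871 lower, 372 differing by stage and 326 by genotype. A replicate block was fitted to the compared groups alone and gave 513, 475, 129 and 124. The same arrays without a block gave 654, 659, 277 and 249, so only part of the drop from the main counts came with the block. Whether the replicate numbers pair the samples is not known, since no label links them. Deviations of same-numbered treated and untreated wild-type myotube arrays correlated at -0.04, 0.07 and 0.14. In the other cells such correlations ran from -0.36 in wild-type myoblasts to 0.46 in MuSK-null myoblasts. These values cannot decide the pairing. A change of at least 1.5-fold left 207, 149, 101 and 84. Leaving out 1 array gave 674 to 855 higher, 608 to 782 lower, 276 to 357 by stage and 210 to 300 by genotype, the 210 without untreated wild-type myotube replicate 2. Leaving out the 4 myoblast arrays, chosen after seeing the data, gave 1094, 1111, 403 and 469. The other settings stayed within 1.5 times of the main counts. The cause of these moves was not tested. A fold minimum can only lower a count. Fits with fewer arrays gave lower counts, except that leaving out the 4 myoblast arrays gave higher ones.

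Of 281 gene results 279 were called. The 1.5-fold minimum was applied to the counts above and not to these gene results. Of the called results 201 stayed called in every other setting applied to them, and 78 were lost under at least 1. The response of Ak4 by its other probe set was 0.31 (adjusted p = 0.227), and that of Irf1, -0.50 by the probe set used, was 0.0268 (adjusted p = 0.929). Signals below 5.99, such as those of Myh15, Mir1a-2 and Il6, limit what a fold can show.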

Other observations

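Several genes outside the lists above were among the strongest in the response of wild-type myotubes. The estrogen receptor gene Esr1 read 9.51, 9.40 and 9.55 untreated and 10.66, 10.70 and 10.61 with BMP4, a rise of 1.17 (limma adjusted p = 3.72e-11). Nptx1, a secreted pentraxin of neurons, went from 10.77, 10.56 and 10.78 to 9.30, 9.49 and 9.33 (change -1.33), and Heg1, a membrane receptor of endothelium and heart, from 10.49, 10.42 and 10.40 to 9.29, 9.06 and 9.09 (-1.29). In each the groups did not overlap. Medag (-1.35), Aknad1 (-1.27), the orphan receptor Gpr146 (-1.24), the sugar transporter Slc2a6 (-1.15) and Rhobtb2 (-1.14) fell as well. Ptx3, a pentraxin of innate immunity, rose by 0.80, and Rrad, a small GTPase that restrains calcium channels, fell by 0.68.

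The called genes of the heat shock list and of the glycolysis and hypoxia list changed by less than 1.5-fold. Of 22 heat shock genes and chaperones 3 rose (13.6%, where 4.40% of all genes did) and 0 fell (median 0.05), namely Hspb6 (0.35), Bag3 (0.31) and Hspb8 (0.52), the last a call lost without untreated replicate 3 (adjusted p = 0.0531). Hspa1a (0.02) and Hspa5 (0.08), the inducible and the endoplasmic reticulum chaperone, did not pass. Of 28 glycolysis and hypoxia genes 4 rose (14.3%) and 3 fell (10.7%, where 4.37% of all genes did), with a median of -0.03. Hexokinase Hk2 rose by 0.40 and Ankrd37 by 0.42, and Egln3, an oxygen sensor, fell by 0.34.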
